A study of Mus musculus with 40 samples.

Results

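Krüppel-like factors are zinc-finger transcription factors, and 10 of their genes, Klf2, Klf3, Klf4, Klf6, Klf7, Klf9, Klf10, Klf11, Klf13 and Klf15, were followed in developing mouse oligodendrocytes given interferon-gamma or thapsigargin. The members were taken by name from a table of 39056 genes. The study holds 40 bulk RNA sequencing libraries in 10 groups of 4, all from wild-type C57BL/6 mice. Oligodendrocyte progenitors were immunopanned from the cortices of 6-day-old pups, passaged 2 times and left to differentiate for 12 to 14 h before treatment, although the tissue label reads whole brain and the age label 6 to 7 days. Untreated cells and cells in interferon-gamma (IFN-gamma, a T-cell cytokine, 200 U/ml) were collected at 1, 8, 24 and 48 h. Cells in thapsigargin, an inhibitor of the calcium pump of the endoplasmic reticulum (ER), were collected at 1 and 8 h, and its dose is given in the labels as 200 uM. No label says whether the 4 replicates of a group are separate cultures or animals, so the spread behind each p-value is that among these libraries and may be technical. In bulk RNA, fewer cells of a type and less RNA per cell cannot be told apart.

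The family shares 3 zinc fingers at the carboxyl end that bind GC-rich and CACC sequences, and differs in the rest of the protein. Klf2, Klf4, Klf6 and Klf7 are best known as activators, Klf3 recruits the CtBP corepressors, Klf9, Klf10, Klf11 and Klf13 recruit the Sin3 corepressor, and Klf15 belongs to none of these classes. Several members are fast-response genes of growth factors, stress or hormones. In the oligodendrocyte lineage Klf9 is known as a thyroid hormone target that favours differentiation and Klf6 as a factor needed for myelination.

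Each library had 13165483 to 22651092 reads assigned to genes, and the tests cover the 15135 genes left by a filter on low counts. Levels are CPM, a gene's reads per 1000000 reads after scaling of the library sizes. A gene was called higher or lower at an edgeR adjusted p under 0.05 over all tested genes, and the share of all tested genes called in the same direction is printed beside the first count of members. The treatments left their marks: Irf1, an interferon-gamma target, was at 632 CPM against 25.5 after 1 h of IFN-gamma, and Hspa5, the ER chaperone, at 9715 against 626 CPM after 8 h of thapsigargin. Together, 3 Y-chromosome genes (Uty, Kdm5d and Eif2s3y) reached at most 20.6 CPM in 10 libraries, 8 of IFN-gamma and 2 of thapsigargin, against at least 103 CPM in the other 30. In IFN-gamma these were replicates 2 and 3 at 1 h and replicates 1 and 3 at 8, 24 and 48 h. In thapsigargin it was replicate 2 at both times. The counts of members called without these 10 libraries are given beside the treatment results that they bear on. Such a fit keeps 2 libraries in each IFN-gamma group. For a call lost there, the Y-linked level and the smaller group cannot be told apart. The numbers in the library titles fall in a lower and an upper range of 20, each with 2 libraries of every group, and the labels do not say what the ranges are. Ribosomal-RNA-like features took 28.3% of the reads of IFN-gamma 1 h replicate 2. Of 10 oligodendrocyte lineage markers 9 or 10 exceeded 1 CPM in every group. In every group 1 of 8 endothelial genes (Kdr) and 1 of 7 microglial genes (P2ry12) exceeded 1 CPM, and Cldn5, a defining endothelial gene, reached at most 0.0888 CPM. Of 6 fibroblast and mural genes 1 (Lum) exceeded 1 CPM, at 8, 24 and 48 h of IFN-gamma. Astrocyte markers, 5 or 6 of 6 over 1 CPM, summed to 145 to 272 CPM as group means, and neuron markers, 4 of 6, to 63.1 to 329 CPM, most of it Tubb3.

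The 250 bases before the start of 6 members are shown because these genes carried the thapsigargin response described below: Klf6 rose at 1 h, Klf11 at both times and Klf3, Klf4, Klf9 and Klf15 at 8 h. Of the 10 members 9, all but Klf10, were matched in the RefSeq table (build GRCm38.p6). Each run reads 5′ to 3′ toward the start on the gene's strand, and capitals mark matches on either strand to the 4 motifs with a match (the letters CACCC for the CACC box, the letters GGGCGG for the GC box, the letters CCAAT for the box of that name, and TTCNNNGAA for the STAT element). Klf3 lies at chr5:64803271-64803520 (plus strand), Klf4 at chr4:55532476-55532725 (minus), Klf6 at chr13:5861239-5861488 (plus), Klf9 at chr19:23140976-23141225 (plus), Klf11 at chr12:24651121-24651370 (plus) and Klf15 at chr6:90462326-90462575 (plus).
Klf3: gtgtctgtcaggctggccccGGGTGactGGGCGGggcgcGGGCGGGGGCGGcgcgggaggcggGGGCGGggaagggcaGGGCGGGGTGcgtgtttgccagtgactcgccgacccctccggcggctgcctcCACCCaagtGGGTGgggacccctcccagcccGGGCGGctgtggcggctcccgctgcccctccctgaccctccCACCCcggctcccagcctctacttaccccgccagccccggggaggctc
Klf4: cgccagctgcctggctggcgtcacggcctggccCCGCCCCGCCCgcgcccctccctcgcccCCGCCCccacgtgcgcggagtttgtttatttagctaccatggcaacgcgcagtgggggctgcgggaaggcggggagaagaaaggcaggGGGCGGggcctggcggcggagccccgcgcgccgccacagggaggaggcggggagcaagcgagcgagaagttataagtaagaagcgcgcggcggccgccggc
Klf6: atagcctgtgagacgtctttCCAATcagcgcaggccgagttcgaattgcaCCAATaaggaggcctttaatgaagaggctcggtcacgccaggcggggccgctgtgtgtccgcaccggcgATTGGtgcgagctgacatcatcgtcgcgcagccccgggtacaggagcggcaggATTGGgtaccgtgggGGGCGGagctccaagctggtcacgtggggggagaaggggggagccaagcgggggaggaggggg
Klf9: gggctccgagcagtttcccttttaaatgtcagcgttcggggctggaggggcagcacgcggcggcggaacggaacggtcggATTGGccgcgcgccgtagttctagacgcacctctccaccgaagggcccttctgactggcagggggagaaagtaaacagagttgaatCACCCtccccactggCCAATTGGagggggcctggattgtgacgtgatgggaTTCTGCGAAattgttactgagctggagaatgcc
Klf11: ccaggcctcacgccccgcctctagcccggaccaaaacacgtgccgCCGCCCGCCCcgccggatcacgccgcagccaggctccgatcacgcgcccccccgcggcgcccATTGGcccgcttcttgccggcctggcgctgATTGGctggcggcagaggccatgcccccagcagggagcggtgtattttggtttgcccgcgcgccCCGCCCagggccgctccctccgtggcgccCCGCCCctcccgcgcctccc
Klf15: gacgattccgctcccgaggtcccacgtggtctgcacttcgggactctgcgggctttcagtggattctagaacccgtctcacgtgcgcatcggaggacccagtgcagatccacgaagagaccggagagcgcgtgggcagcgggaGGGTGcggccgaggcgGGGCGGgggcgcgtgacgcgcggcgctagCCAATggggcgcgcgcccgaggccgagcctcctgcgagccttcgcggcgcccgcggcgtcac

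Motifs were searched on both strands, with overlapping matches counted, including those shared between motifs. GGGCGG, the GC box, was in 8 of the 9 windows against 32.7% of 32851 windows of that length, and Klf9 was the member without it. CACCC, the core of the family's own recognition sequence, was in 6 of 9 against 52.0%, with 5 matches before Klf3 and none before Klf4, Klf6 or Klf11. CCAAT was in 5 of 9 against 33.8%, with 4 matches before Klf6. TTCNNNGAA, the spacing bound by STAT factors, was in 1 of 9 (Klf9, 33 bases before the start) against 7.02%. TGATGNAA, a form bound by ATF4 and its partners, was in 0 of 9 against 3.45%, and TGACGTCA, the cyclic AMP response element, in 0 of 9 against 1.55%. The windows of the 9 members were 59.2 to 78.4% G or C, all above the median of 52.4%, and GC-rich letters raise the count of GC-rich motifs. A match is a description of the letters and not a bound site.

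**Figure D1:**
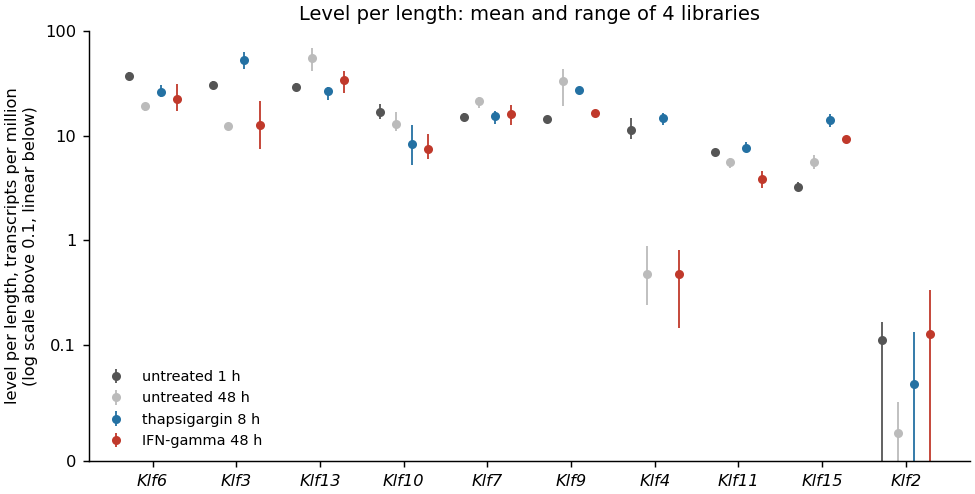
Level per annotated transcript length (estimated transcripts in 1000000, y axis, log scale above 0.1 and linear below) of the 10 Klf genes (x axis), as the mean (point) and the range (line) of 4 libraries in 4 of the 10 groups. Klf6, Klf3 and Klf13 lead in untreated cells of 1 h, Klf4 drops under 1 by 48 h, and Klf2 stays near 0.

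Per length, Klf6 was the highest member in untreated cells of 1 h, at 37.7 ± 2.47 transcripts in 1000000 (SD, n = 4), with every library above those of Klf3 at 30.4 ± 2.09 and Klf13 at 29.1 ± 1.99, which overlapped each other. Klf10 (17.1 ± 2.34), Klf7 (15.04 ± 1.18), Klf9 (14.4 ± 0.697) and Klf4 (11.3 ± 2.40) came next, each overlapping at least 1 neighbour in this order, then Klf11 at 6.995 ± 0.292 and Klf15 at 3.23 ± 0.240, which overlapped neither each other nor another member. By 48 h the order in untreated cells had become Klf13 (56.1 ± 14.6), Klf9 (33.4 ± 10.2) and Klf7 (21.7 ± 2.22), neighbours overlapping, with Klf4 at 0.476 ± 0.294. After 8 h of thapsigargin Klf3 led at 53.1 ± 8.64, and its lowest library was above every library of any other member. These values divide the estimated counts of each transcript by its own annotated length and are summed per gene, and so depend on the annotation.

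Klf2, a factor best known from endothelium and lymphocytes, was at or near 0. It had 0 to 6 reads in each of the 40 libraries, at most 0.254 CPM, did not pass the filter on low counts and was not tested. The other 9 members were tested in every comparison.

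In the deposited isoform table Klf6, Klf9 and Klf10 had 1 transcript each. A single transcript held most of the estimated counts of Klf3 (86.7 to 92.3% as group means), Klf4 (96.6 to 99.9%), Klf7 (92.4 to 94.9%), Klf11 (95.7 to 99.0%) and Klf13 (98.5 to 99.4%), and the same transcript led in every group. Klf15 was split among 5 protein-coding transcripts, the leading one between 23.7 and 55.6% as group means, and its share ranged from 0 to 68.0% in single libraries, so that no isoform of Klf15 could be followed at this depth.

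**Figure D2:**
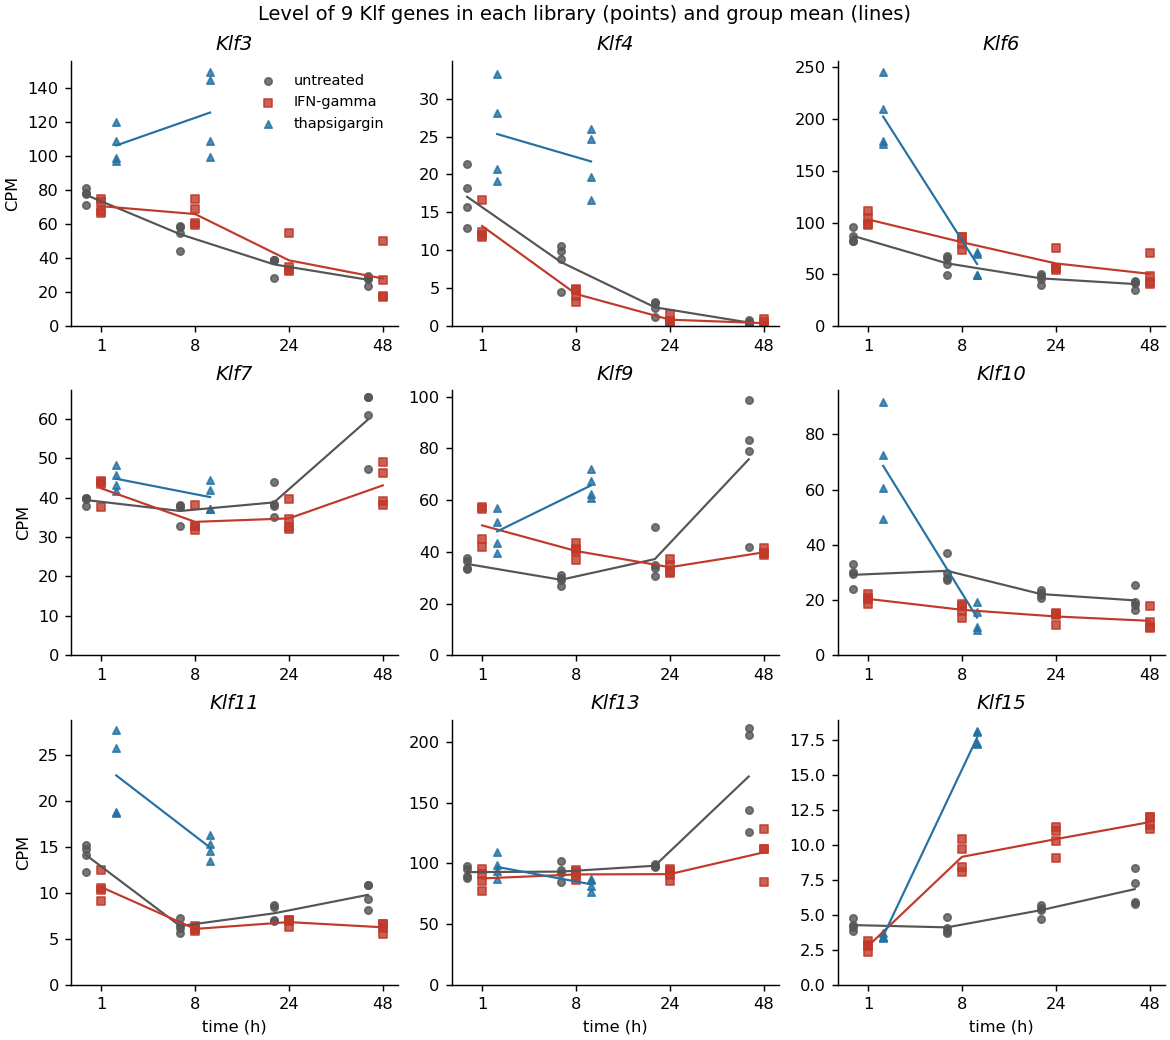
CPM (y axis, from 0) of the 9 tested Klf genes against time (x axis, 1, 8, 24 and 48 h, equally spaced) in untreated (grey circles), IFN-gamma (red squares) and thapsigargin (blue triangles) libraries, with lines through the group means of 4. Klf4 falls in untreated cells from 17.1 to 0.471 CPM, Klf6 and Klf10 peak at 1 h of thapsigargin, and Klf15 stands apart from untreated cells at 8 h of thapsigargin and at 8, 24 and 48 h of IFN-gamma.

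The untreated series asks how the family moves with time in culture, and the members split in 2 directions. From 1 to 48 h all 9 tested members were called: Klf7, Klf9, Klf13 and Klf15 rose (4 of 9, against 31.9% of all tested genes) and Klf3, Klf4, Klf6, Klf10 and Klf11 fell (5 of 9, against 30.4%). The members' median log2 fold change was -0.53, beside 0.00 over all tested genes. Of 10 immediate early genes 0 rose and 9 fell over the same span, against the same shares. They summed to 447 to 604 CPM at 1 h and 160 to 181 at 48 h. Maturation and a high level of fast-response genes at 1 h cannot be told apart in the Klf genes that fell. Oligodendrocyte lineage markers summed to 6445 to 6862 CPM at 1 h and 9465 to 16627 at 48 h. The sum joins genes that moved in both directions, with 6 of the 10 markers called higher and 4 lower. Of 6 astrocyte markers 5 were called higher and 1 lower. The part of these markers in the Klf changes was not tested.

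Among the activators, Klf4, a reprogramming and growth-arrest factor, fell the most. Its 4 libraries held 18.2, 21.4, 15.7 and 12.99 CPM at 1 h, 10.5, 8.79, 9.95 and 4.50 at 8 h, 3.09, 3.15, 2.45 and 1.23 at 24 h and 0.157, 0.814, 0.553 and 0.361 at 48 h. No library of a later time reached any library of an earlier one, and the log2 fold change from 1 to 48 h was -5.11 ± 0.39 (SE; edgeR adjusted p = 1.46e-11), a 34.6-fold drop that rests on 3 to 18 reads per library at 48 h. Endothelial markers, which mark another known source of Klf4, summed to 9.55 to 11.7 CPM at 1 h and 2.83 to 8.28 at 48 h, most of it Kdr, and their part in the change was not tested. Klf6, a gene induced by injury and growth factors, went from 82.6, 87.4, 96.3 and 82.5 CPM at 1 h to 43.8, 34.9, 41.7 and 42.3 at 48 h. The groups did not overlap, and the log2 fold change was -1.10 ± 0.14 (edgeR adjusted p = 6.54e-08). Klf7, a relative of Klf6 known from neurite growth, stayed between 32.8 and 44.0 CPM in all untreated libraries up to 24 h. At 48 h its libraries held 65.5, 47.2, 65.4 and 60.9 CPM, all above that range, and replicate 2 was the lowest (log2 fold change from 1 h 0.60 ± 0.09, edgeR adjusted p = 1.50e-06).

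Klf3, the member that binds CtBP, fell in steps. Its libraries held 71.2, 77.7, 78.5 and 81.3 CPM at 1 h, 58.3, 54.6, 59.2 and 44.4 at 8 h, 38.9, 38.9, 39.004 and 28.5 at 24 h and 23.7, 28.1, 29.7 and 27.6 at 48 h. The 1, 8 and 24 h groups stood apart from each other, the lowest library of 24 h was below the highest of 48 h, and the log2 fold change over 48 h was -1.50 ± 0.21 (edgeR adjusted p = 1.91e-07).

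The Sin3-binding members went both ways. Klf9 had libraries of 36.6, 37.5, 33.7 and 33.6 CPM at 1 h and 79.05, 42.1, 98.8 and 83.2 at 48 h. All 4 late libraries were above all early ones, replicate 2 far below the other 3, and the log2 fold change was 1.10 ± 0.15 (edgeR adjusted p = 2.42e-07). Klf13, known as an activator of a chemokine gene in T cells, was at 88.01, 89.8, 95.1 and 97.96 CPM at 1 h and 143, 126, 205 and 211 at 48 h. These groups did not overlap either, with replicates 3 and 4 of 48 h well above replicates 1 and 2 (log2 fold change 0.89 ± 0.11, edgeR adjusted p = 4.47e-08). Untreated 48 h replicate 2 was the lowest library for Klf7, Klf9 and Klf13 and had the lowest sum of lineage markers in its group, 9465 CPM against up to 16627.

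Klf11, a TGF-beta-inducible gene, had dropped by 8 h, from 12.2, 14.2, 14.8 and 15.2 to 6.16, 6.53, 5.67 and 7.21 CPM. The 2 groups stood far apart, with a log2 fold change of -1.14 ± 0.12 (edgeR adjusted p = 1.54e-07). At 48 h it was at 8.17, 9.32, 10.8 and 10.8 CPM, between the 1 and 8 h levels and still lower than at 1 h (-0.53 ± 0.12). Klf10, its close relative, held 29.4, 24.1, 30.2 and 32.9 CPM at 1 h and 18.1, 16.4, 19.5 and 25.6 at 48 h. Replicate 4 of 48 h lay inside the 1 h range, and the log2 fold change of -0.55 ± 0.19 (edgeR adjusted p = 0.0113) was not called without untreated 48 h replicate 2 (-0.44, adjusted p = 0.0568) or within the upper 20 library numbers (adjusted p = 0.0892).

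Klf15, a glucocorticoid-responsive regulator of amino acid and glucose metabolism, was the lowest tested member by CPM at 1 h. It went from 3.84, 4.80, 4.26 and 4.15 CPM at 1 h to 5.76, 5.92, 8.36 and 7.28 at 48 h. The groups did not overlap, and the log2 fold change was 0.67 ± 0.11 (edgeR adjusted p = 3.37e-06).

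At the intermediate times fewer members were called. At 8 h 0 of 9 were higher (against 4.77%) and 3 were lower, Klf4, Klf6 and Klf11 (against 2.16%). Of the 10 immediate early genes 0 were higher and 7 lower at 8 h, against the same shares. The calls of Klf4 (log2 fold change -1.01 ± 0.27) and Klf6 (-0.52 ± 0.14) at 8 h ended without untreated 8 h replicate 4 (-0.81, edgeR adjusted p = 0.0996, and -0.43, adjusted p = 0.104). That of Klf4 also ended without untreated 1 h replicate 1 or 2 (adjusted p = 0.0520 and 0.0807), and that of Klf6 without untreated 1 h replicate 3 (adjusted p = 0.0623). Klf11 kept its call at 8 h without any of these libraries. At 24 h Klf15 was higher (1 of 9, against 13.9%), and Klf3, Klf4, Klf6 and Klf11 were lower (4 of 9, against 14.4%). Of the 10 immediate early genes 0 were higher and 8 lower at 24 h. The 24 h value of Klf15, 0.32 ± 0.11, lost its call without untreated 1 h replicate 1 (adjusted p = 0.0722) or untreated 24 h replicate 4 (adjusted p = 0.0838). In neither range of library numbers were Klf4 and Klf6 called at 8 h (adjusted p from 0.0743 to 0.303) or Klf15 at 24 h (0.218 in the lower and 0.0830 in the upper), and Klf3 was not called at 24 h in the lower (0.126).

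Thapsigargin at 1 h asks which members answer within the first hour of the treatment. Klf6, Klf10 and Klf11 rose (3 of 9, against 6.61% of all tested genes), and 0 of 9 fell (against 2.18%). The members' median log2 fold change was 0.46, beside -0.02 over all genes, and without the libraries of low Y-linked level 4 members were called, Klf3 being added.

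Klf6 held 82.6, 87.4, 96.3 and 82.5 CPM in untreated cells and 209, 176, 179 and 246 in thapsigargin. The lowest treated library was far above the highest untreated one, and the log2 fold change was 1.22 ± 0.14 (edgeR adjusted p = 1.68e-07), a 2.32-fold rise. Klf10, the TGF-beta-inducible early gene, went from 29.4, 24.1, 30.2 and 32.9 to 72.6, 60.7, 49.2 and 91.7 CPM. All 4 treated libraries exceeded all untreated ones, with replicate 4 the highest, and the log2 fold change was 1.24 ± 0.19 (edgeR adjusted p = 1.44e-05). Klf11 went from 12.2, 14.2, 14.8 and 15.2 to 25.8, 18.7, 18.8 and 27.7 CPM. The groups did not overlap, and the log2 fold change was 0.70 ± 0.11 (edgeR adjusted p = 4.31e-05). Replicates 1 and 4 of thapsigargin were the 2 highest for Klf3, Klf4, Klf6, Klf10 and Klf11 alike.

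The other 6 members did not pass the test at 1 h. Klf3 was at 109, 97.3, 98.98 and 120.4 CPM against 71.2, 77.7, 78.5 and 81.3, with no overlap and a log2 fold change of 0.46 ± 0.20 (edgeR adjusted p = 0.165). Without the libraries of low Y-linked level it was called (0.51, adjusted p = 0.0208). Klf9 was at 43.5, 39.6, 51.4 and 57.1 CPM against 36.6, 37.5, 33.7 and 33.6, also without overlap (0.44 ± 0.15, adjusted p = 0.0732), and was called without thapsigargin 1 h replicate 2 (0.52, adjusted p = 0.0383). Klf4 had a log2 fold change of 0.57 ± 0.26, Klf7 of 0.19 ± 0.09 and Klf13 of 0.07 ± 0.11. Klf15 was the member with a negative value, -0.29 ± 0.12 (adjusted p = 0.123), with all treated libraries (3.37 to 3.72 CPM) below all untreated ones (3.84 to 4.80 CPM).

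After 8 h of thapsigargin a partly different set was called. Klf3, Klf4, Klf9, Klf11 and Klf15 were higher than in untreated cells of 8 h (5 of 9, against 29.6% of all tested genes), Klf10 was lower (1 of 9, against 31%), and Klf6, Klf7 and Klf13 were not called. The members' median log2 fold change was 1.17, beside -0.01 over all genes. The count stayed at 6 when any 1 library of the 2 groups or those of low Y-linked level were left out, and in either range of 20 library numbers fitted alone. Oligodendrocyte lineage markers summed to 2875 to 3466 CPM in thapsigargin against 6758 to 8034 in untreated cells, and neuron markers to 179.97 to 198 against 63.5 to 77.1, most of it Tubb3, and their part in the Klf changes was not tested.

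Klf15 changed most. Its untreated libraries held 4.81, 3.69, 4.05 and 3.85 CPM and its thapsigargin libraries 17.2, 18.04, 18.2 and 17.3. The treated libraries lay close together and far above the untreated ones, and the log2 fold change was 2.10 ± 0.11 (edgeR adjusted p = 3.08e-18), a 4.30-fold rise. At 1 h thapsigargin had left it on the low side, and the difference between the 8 h and the 1 h effect was 2.40 ± 0.16 (edgeR adjusted p = 7.92e-15).

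Klf4 was at 10.5, 8.79, 9.95 and 4.50 CPM in untreated and 25.98, 24.7, 16.6 and 19.6 in treated cells. No libraries overlapped, and the log2 fold change was 1.36 ± 0.27 (edgeR adjusted p = 4.74e-05). Its treated range at 8 h overlapped the untreated range at 1 h, 12.99 to 21.4 CPM. Klf3 was at 58.3, 54.6, 59.2 and 44.4 CPM untreated and 149, 145, 99.4 and 109 treated, again without overlap (1.22 ± 0.20, edgeR adjusted p = 3.51e-06). For both genes, and for Klf6, thapsigargin replicates 1 and 2 were above replicates 3 and 4. Replicates 1 and 2 belong to the lower 20 library numbers and 3 and 4 to the upper 20, and the log2 fold change of Klf3 was 1.37 within the lower and 1.04 within the upper range.

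Klf9 was at 29.8, 29.2, 31.2 and 26.8 CPM untreated and 67.3, 71.9, 62.6 and 60.96 treated. The groups stood apart, with a log2 fold change of 1.17 ± 0.16 (edgeR adjusted p = 5.93e-08). Klf11 was at 6.16, 6.53, 5.67 and 7.21 CPM untreated and 14.6, 13.4, 16.3 and 15.4 treated, also apart (1.22 ± 0.12, edgeR adjusted p = 7.38e-11). Its treated level had come down from 22.8 CPM at 1 h to 14.9 at 8 h while the untreated level went from 14.1 to 6.39, so that the fold over untreated cells was larger at 8 h.

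Klf10 was the member that fell. Its libraries held 29.8, 27.4, 37.1 and 28.1 CPM untreated and 10.1, 9.34, 19.4 and 15.9 treated. Every treated library was below every untreated one, replicates 1 and 2 the lowest, and the log2 fold change was -1.17 ± 0.19 (edgeR adjusted p = 3.34e-06). Within the lower 20 library numbers it was -1.57 and within the upper 20 -0.86. Klf6, raised at 1 h, was not called at 8 h, with 70.1, 71.3, 49.1 and 49.8 CPM against 65.8, 59.8, 67.997 and 49.1. The ranges overlapped and the log2 fold change was -0.01 ± 0.14, with a 95% interval of -0.30 to 0.28. Klf7 (0.13 ± 0.10, interval -0.06 to 0.33) and Klf13 (-0.17 ± 0.11, interval -0.40 to 0.06) were not called at either time of thapsigargin.

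**Figure D3:**
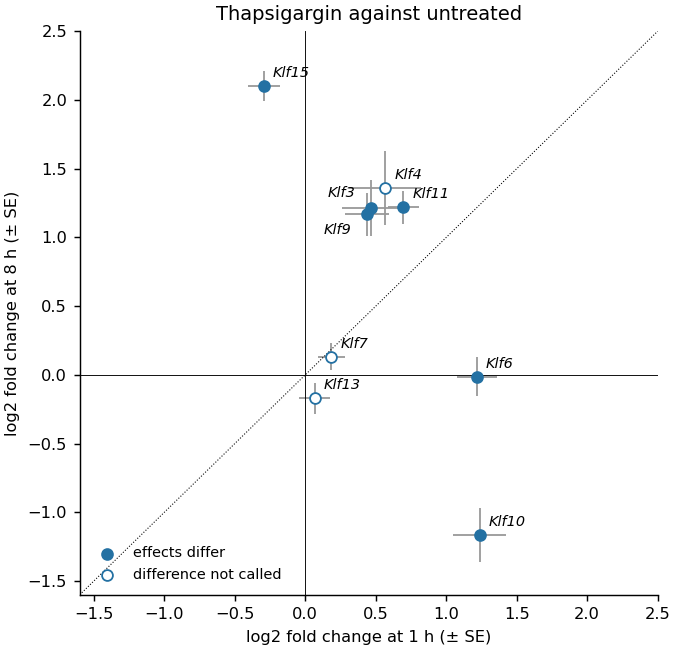
Log2 fold change of the 9 tested Klf genes in thapsigargin against untreated cells at 1 h (x axis) and 8 h (y axis), with lines of ± 1 SE; filled points are genes whose 8 h and 1 h effects differed by the test, open points those not called, and the dotted line marks equal effects. Klf15 lies above the line (2.10 at 8 h), and Klf6 and Klf10 lie far below it.

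Tested directly, the effect of thapsigargin differed between 8 and 1 h for 6 of 9 members. It was higher at 8 h for Klf3, Klf9, Klf11 and Klf15 (4 of 9, against 22.7% of all genes) and lower for Klf6 and Klf10 (2 of 9, against 24.8%), and without the libraries of low Y-linked level 5 members were called. The differences were -1.23 ± 0.20 for Klf6 (edgeR adjusted p = 4.18e-06) and -2.40 ± 0.27 for Klf10 (adjusted p = 3.35e-09), the early pair. For Klf9 the difference was 0.73 ± 0.22 and for Klf11 0.53 ± 0.16, and the call of Klf9 ended without the libraries of low Y-linked level (0.63, adjusted p = 0.0538). For Klf3 it was 0.75 ± 0.28 and ended without thapsigargin 8 h replicate 1 or 2 (adjusted p = 0.0558 and 0.0503) or untreated 8 h replicate 4 (adjusted p = 0.0518). Within the lower 20 library numbers Klf3 and Klf11 were not called (adjusted p = 0.139 and 0.208), and within the upper 20 Klf3 and Klf9 were not (0.0874 and 0.171). For Klf4 the difference was 0.79 ± 0.37 (adjusted p = 0.0782) and was called without untreated 1 h replicate 4, thapsigargin 1 h replicate 4 or thapsigargin 8 h replicate 3 (adjusted p = 0.0472, 0.0369 and 0.0478).

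The next comparisons ask how IFN-gamma shifts the family against untreated cells of the same time, and at 1 and 8 h they share their untreated libraries with the thapsigargin comparisons. At 1 h Klf15 fell (1 of 9, against 0.211% of all tested genes) and 0 of 9 rose (against 1.08%). Klf15 held 2.31, 2.75, 3.15 and 2.86 CPM against 3.84, 4.80, 4.26 and 4.15 in untreated cells. The groups did not overlap, and the log2 fold change was -0.62 ± 0.12 (edgeR adjusted p = 0.00131). It was also called without the libraries of low Y-linked level (-0.72, adjusted p = 0.0278), but not within the lower (-0.79, adjusted p = 0.0533) or the upper 20 library numbers (-0.47, adjusted p = 0.388) alone. Fitted on the 8 libraries of the 2 groups alone, Klf15 was not called either (-0.63, adjusted p = 0.0588), while Klf9 (0.50, adjusted p = 0.0372) and Klf10 (-0.51, adjusted p = 0.0179) were.

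At 1 h Klf9 was at 42.04, 45.2, 57.3 and 56.6 CPM against 36.6, 37.5, 33.7 and 33.6, with no overlap, and did not pass the test (0.51 ± 0.15, edgeR adjusted p = 0.116). Klf10 was at 20.3, 20.8, 22.1 and 18.5 CPM against 29.4, 24.1, 30.2 and 32.9, also without overlap (-0.51 ± 0.19, adjusted p = 0.253). Klf11 had a log2 fold change of -0.40 ± 0.11 (adjusted p = 0.0764) and was called without IFN-gamma 1 h replicate 4 (-0.48, adjusted p = 0.0358). Klf3, Klf4, Klf6, Klf7 and Klf13 lay between -0.38 and 0.24 on the log2 scale.

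From 8 h on Klf15 was higher in IFN-gamma at every time. It held 8.38, 8.08, 9.70 and 10.4 CPM at 8 h, 9.09, 10.3, 11.3 and 10.98 at 24 h and 11.96, 11.1, 11.5 and 11.97 at 48 h, against untreated ranges of 3.69 to 4.81, 4.71 to 5.72 and 5.76 to 8.36 CPM. At each of these times all 4 treated libraries were above all untreated ones, with log2 fold changes of 1.15 ± 0.11, 0.96 ± 0.11 and 0.77 ± 0.11 (edgeR adjusted p = 1.63e-10, 4.96e-09 and 3.52e-07). These calls held without the libraries of low Y-linked level, without any 1 library and within each range of library numbers. The turn from a lower to a higher level was the one difference called between the 8 and 1 h effects of IFN-gamma: Klf15 alone was higher (1 of 9, against 7.39% of all genes) and 0 of 9 were lower (against 4.99%), with a difference of 1.77 ± 0.16 (edgeR adjusted p = 1.48e-10).

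In all, at 8 h Klf6, Klf9 and Klf15 were higher (3 of 9, against 13.1%) and Klf4 and Klf10 lower (2 of 9, against 12.1%). At 24 h Klf6 and Klf15 were higher (2 of 9, against 12.6%) and Klf4 and Klf10 lower (2 of 9, against 10.5%). Without the libraries of low Y-linked level 4 members were called at 8 h and 3 at 24 h. Within the lower 20 library numbers Klf6 and Klf9 were not called at 8 h (adjusted p = 0.157 and 0.196), nor Klf6 at 24 h (0.183). Within the upper 20 Klf4 and Klf6 were not called at 8 h (adjusted p = 0.0757 and 0.122), nor Klf4, Klf6 and Klf10 at 24 h (0.0695, 0.210 and 0.111).

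Markers of several cell types moved with these changes, and their part in the Klf changes was not tested. Oligodendrocyte lineage markers summed to 4785 to 5222 CPM at 8 h and 5687 to 6827 at 24 h of IFN-gamma, against 6758 to 8034 and 7973 to 9697 in untreated cells. Neuron markers summed to 298 to 353 CPM at 8 h and 164 to 226 at 24 h against 63.5 to 77.1 and 61.8 to 71.3, most of it the tubulin gene Tubb3. Astrocyte markers summed to 253 to 299 and 202 to 237 CPM against 131 to 173 and 115 to 168, most of it the glutamate transporter gene Slc1a3. Fibroblast and mural markers summed to 4.19 to 6.12 and 5.86 to 9.05 CPM against 0.286 to 0.711 and 0.298 to 3.77.

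Klf10 was lower at all 3 later times. It held 18.5, 13.5, 16.2 and 17.8 CPM at 8 h and 15.5, 11.1, 14.95 and 14.8 at 24 h of IFN-gamma, against 29.8, 27.4, 37.1 and 28.1 and 22.5, 21.8, 23.7 and 20.8 in untreated cells. Neither pair of groups overlapped, and the log2 fold changes were -0.89 ± 0.19 and -0.66 ± 0.19 (edgeR adjusted p = 4.87e-04 and 0.0113). At 48 h it was at 17.9, 10.4, 9.77 and 11.97 CPM, replicate 1 inside the untreated range, and the value of -0.66 ± 0.20 (adjusted p = 0.00805) lost its call without untreated 48 h replicate 4 (-0.52, adjusted p = 0.0508).

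Klf4 was at 4.77, 4.94, 4.02 and 3.21 CPM at 8 h and 1.53, 0.609, 0.516 and 0.729 at 24 h of IFN-gamma. Both ranges touched those of untreated cells, through untreated replicate 4 at each time and IFN-gamma replicate 1 at 24 h. The log2 fold changes were -0.998 ± 0.29 and -1.55 ± 0.40 (edgeR adjusted p = 0.00996 and 0.00364), and the 8 h call ended without untreated 8 h replicate 1 (-0.85, adjusted p = 0.0508). By 48 h Klf4 was near 0 in both groups, and the value of -0.19 ± 0.61 has an interval of -1.43 to 1.06. Endothelial markers summed to 3.85 to 4.89 CPM at 8 h of IFN-gamma against 6.71 to 9.33, with 3 of the 8 genes at 0 reads in all 4 treated libraries, and their part in the fall of Klf4 was not tested.

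Klf6 was at 85.7, 86.1, 78.9 and 73.7 CPM at 8 h and 75.9, 55.8, 56.4 and 54.2 at 24 h, above all untreated libraries at both times. The rises were small, and their calls depended on single libraries and on the settings of the fit. With the Y-linked level as a covariate neither was called (edgeR adjusted p = 0.0634 at 8 h and 0.107 at 24 h). At 24 h Klf6 was not called either with no filter on low counts (0.0613) or with the isoform table summed per gene (0.0932). That of 8 h, 0.42 ± 0.14 (edgeR adjusted p = 0.0265), ended without untreated 8 h replicate 4 (0.36, adjusted p = 0.0772). That of 24 h, 0.39 ± 0.14 (adjusted p = 0.0421), ended without IFN-gamma 24 h replicate 1 (0.27, adjusted p = 0.213), without untreated 24 h replicate 1, 2 or 4 (adjusted p = 0.0526, 0.0702 and 0.135) and without the libraries of low Y-linked level (0.26, adjusted p = 0.265). Klf9 was at 41.05, 36.8, 43.3 and 40.2 CPM at 8 h, above all untreated libraries (0.46 ± 0.16, adjusted p = 0.0250). Its call ended without untreated 8 h replicate 4, IFN-gamma 8 h replicate 3 (adjusted p = 0.0541 and 0.0684) or the libraries of low Y-linked level (0.42, adjusted p = 0.195).

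At 48 h of IFN-gamma 6 of 9 members were called, against the untreated 48 h libraries that also end the untreated course. Klf7, Klf9, Klf10, Klf11 and Klf13 fell against untreated cells of 48 h (5 of 9, against 19.9% of all tested genes), and Klf15 rose (1 of 9, against 16.9%). The members' median log2 fold change was -0.47, beside 0.00 over all genes, and 6 members were also called without the libraries of low Y-linked level. Fitted on the 2 groups alone, 4 were called, without Klf10 (adjusted p = 0.0699) and Klf13 (0.0519), and within the lower 20 library numbers Klf7 (0.125) and Klf10 (0.404) were not called. Lineage markers summed to 6217 to 8490.2 CPM against 9465 to 16627 in untreated cells, with 2 of the 10 called higher and 4 lower. Neuron markers summed to 152 to 218 CPM against 73.9 to 88.1, most of it Tubb3. Fibroblast and mural markers summed to 8.42 to 10.1 against 0.184 to 1.45, most of it Lum in the treated cells. The part of these markers in the Klf changes was not tested.

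Klf9 was at 38.9, 39.5, 41.4 and 39.6 CPM in IFN-gamma against 79.05, 42.1, 98.8 and 83.2 in untreated cells. The treated libraries lay close together and below the lowest untreated one, replicate 2, and the log2 fold change was -0.93 ± 0.15 (edgeR adjusted p = 1.12e-05). Untreated Klf9 had risen from 29.2 CPM at 8 h to 75.8 at 48 h, while under IFN-gamma the means were 40.4 and 39.8. Klf13 was at 84.3, 112, 128 and 112 CPM against 143, 126, 205 and 211. Treated replicate 3 was above untreated replicate 2, and the log2 fold change was -0.65 ± 0.11 (adjusted p = 1.89e-05). Klf11 was at 5.55, 6.60, 6.63 and 6.21 CPM against 8.17, 9.32, 10.8 and 10.8, without overlap (-0.64 ± 0.12, adjusted p = 7.20e-05). Klf7 was at 38.04, 48.99, 46.3 and 39.04 CPM against 65.5, 47.2, 65.4 and 60.9, overlapping through untreated replicate 2 (-0.47 ± 0.09, adjusted p = 1.54e-04).

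IFN-gamma 48 h replicate 1, a library of low Y-linked level, was the highest or the lowest of its group in 8 members, by a narrow margin in some. Klf3 was at 50.2, 17.4, 17.3 and 27.1 CPM, with replicate 1 the highest, against 23.7, 28.1, 29.7 and 27.6 in untreated cells (0.04 ± 0.21, interval -0.38 to 0.47). Klf6 was at 70.2, 40.4, 43.04 and 48.4 CPM, again with replicate 1 the highest (0.32 ± 0.14, edgeR adjusted p = 0.0839), and was called without IFN-gamma 48 h replicate 2 or 3 (adjusted p = 0.0252 and 0.0396). It was the lowest of its group for Klf7, Klf9, Klf11 and Klf13 and the highest for Klf4 and Klf10.

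Between 8 and 48 h the effect of IFN-gamma became lower for Klf9, Klf11 and Klf13 (3 of 9, against 9.83% of all genes) and higher for 0 of 9 (against 7.20%). The differences were -1.39 ± 0.22, -0.57 ± 0.18 and -0.62 ± 0.16 (edgeR adjusted p = 4.72e-05, 0.0227 and 0.00712). Without the libraries of low Y-linked level Klf9 alone was called. Within the lower 20 library numbers none of the 3 was called (adjusted p = 0.119, 0.363 and 0.186), and Klf13 was not called with only the groups compared (0.0827). The call of Klf11 ended without IFN-gamma 48 h replicate 1 or untreated 48 h replicate 3 (adjusted p = 0.0531 and 0.0522). Klf3 was called lower without IFN-gamma 48 h replicate 1 (-0.71, adjusted p = 0.0297, against -0.24 ± 0.29 with it). Klf7 (-0.36 ± 0.13, adjusted p = 0.0608) was called without any 1 of untreated 48 h replicate 2, untreated 8 h replicate 4 or IFN-gamma 48 h replicate 2 or 3, and Klf15 (-0.38 ± 0.15, adjusted p = 0.0803) without any 1 of untreated 8 h replicate 1, untreated 48 h replicate 1 or 2 or IFN-gamma 8 h replicate 2. In these cases the adjusted p lay between 0.00477 and 0.0475 for Klf7 and between 0.0237 and 0.0471 for Klf15.

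**Figure D4:**
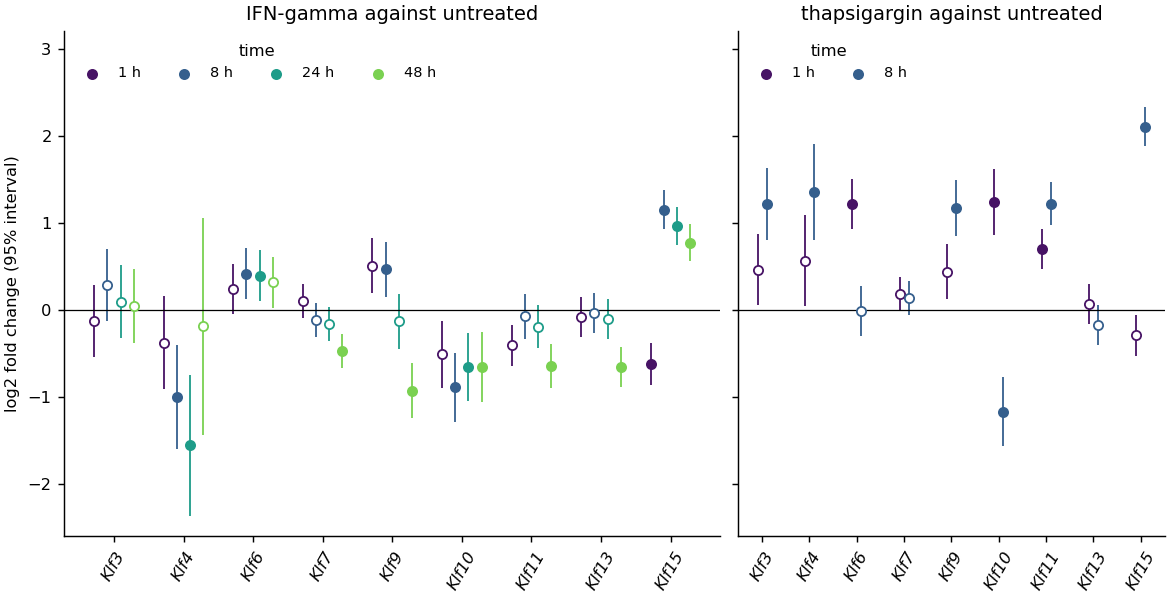
Log2 fold change (y axis) of the 9 tested Klf genes (x axis) against untreated cells of the same time, in IFN-gamma at 1, 8, 24 and 48 h (left) and thapsigargin at 1 and 8 h (right), with 95% intervals as lines; filled points passed an edgeR adjusted p under 0.05 and open points did not. Klf15 is above 0 at 8, 24 and 48 h of IFN-gamma (1.15, 0.96 and 0.77) and at 8 h of thapsigargin (2.10), and Klf10 is below 0 at the same 4 points.

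Set directly against each other, the treatments differed for 4 of 9 members at 1 h. Klf4, Klf6, Klf10 and Klf11 were lower in IFN-gamma (4 of 9, against 4.36% of all genes), and 0 of 9 were higher (against 1.72%). Without the libraries of low Y-linked level 4 were called, with Klf3 in place of Klf4. Klf10 differed the most at 1 h, with 18.5 to 22.1 CPM in IFN-gamma and 49.2 to 91.7 in thapsigargin (-1.74 ± 0.19, edgeR adjusted p = 2.29e-08). For Klf11 the value was -1.10 ± 0.11, for Klf6 -0.97 ± 0.14 and for Klf4 -0.94 ± 0.26, and that of Klf4 was not called without the libraries of low Y-linked level (-1.14, adjusted p = 0.0557). It was not called either without thapsigargin 1 h replicate 1 or 4 or IFN-gamma 1 h replicate 1, 3 or 4, with adjusted p from 0.0602 to 0.116.

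At 8 h Klf3, Klf4, Klf7, Klf9, Klf11 and Klf15 were lower in IFN-gamma than in thapsigargin (6 of 9, against 29.9%) and Klf6 was higher (1 of 9, against 31.5%), and 6 were called without the libraries of low Y-linked level. Klf4 differed the most at 8 h, with 3.21 to 4.94 CPM in IFN-gamma and 16.6 to 25.98 in thapsigargin (-2.35 ± 0.29, edgeR adjusted p = 8.16e-09). Klf15, raised by both treatments at 8 h, held 8.08 to 10.4 CPM in IFN-gamma and 17.2 to 18.2 in thapsigargin (-0.95 ± 0.10, adjusted p = 5.10e-10). Klf10, lowered by both, was at 13.5 to 18.5 and 9.34 to 19.4 CPM, and its difference of 0.28 ± 0.20 (interval -0.13 to 0.68) was not called. It was called within the lower 20 library numbers (0.70, adjusted p = 0.0202) and without thapsigargin 8 h replicate 3 (0.50, adjusted p = 0.0324). That of Klf7, -0.24 ± 0.10, was not called without the libraries of low Y-linked level (-0.16, adjusted p = 0.333) or without any 1 of 5 libraries, thapsigargin 8 h replicate 2 or 4 and IFN-gamma 8 h replicate 1, 3 or 4 (adjusted p from 0.0634 to 0.102).

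Across the 10 group means of log2 CPM, as a description, the members fell into unlike courses. Klf3 and Klf4 were the most alike pair of members (Pearson r = 0.95, n = 10 groups), then Klf7 and Klf13 (0.83), and Klf10 and Klf15 were the most opposed (-0.76). The groups share culture, library preparation and the course of maturation, so these values carry no test. Among 11756 genes averaging log2 CPM 1 or more, those nearest to Klf4 were Ccdc141 (r = 0.99), Nkd1 (0.98) and Tpm1 (0.97), and those nearest to Klf3 were Tnfrsf12a, Ephx4 and Cdk8 (0.96 to 0.97). Nearest to Klf10 were Nr4a1 (0.93), the immediate early nuclear receptor gene, Srf (0.92), the serum response factor gene, and Ankrd9 (0.90). Nearest to Klf6 were Topors, Junb and Naa15 (0.94 to 0.95), and to Klf11 Rnf113a2, the circadian repressor gene Ciart and Armc5 (0.92 to 0.94). Klf13 ran with Mapk3 (0.99), the gene of the kinase ERK1, Bace2 and Hs6st1, Klf9 with Wac, Rb1 and Akap11 (0.94 to 0.96), Klf7 with Irs1, Usp38 and Sema6a (0.94 to 0.96), and Klf15 with Tm2d2, Rpgr and Snx11 (0.97 to 0.98).

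The rest of the Klf genes and the related Sp genes make a list of 16, of which 10 passed the filter. At 8 h of thapsigargin 3 were higher and 1 lower, beside 29.6% and 31% of all tested genes, shares against which the counts of all lists at that time are to be read, with a median log2 fold change of 0.03 beside -0.01 over all genes. Klf5, a growth-associated member at 0.292 CPM in untreated cells, rose to 2.27 (2.97 ± 0.41, edgeR adjusted p = 9.84e-08), Sp2 rose by 0.57 ± 0.15 and Klf8, which binds CtBP as Klf3 does, had a log2 fold change of -0.66 ± 0.14. At 8 h of IFN-gamma Klf8 rose by 0.61 ± 0.13 and Sp5 rose from 0.0111 to 0.953 CPM, and at 48 h Klf12 rose by 0.47 ± 0.11. From 1 to 48 h in untreated cells 2 rose and 6 fell (against 31.9% and 30.4% of all tested genes), among them Klf16 (-1.02 ± 0.17) and Klf5 (-1.38 ± 0.44).

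Of 10 corepressor genes for Klf proteins, all tested, 2 were higher and 6 lower at 8 h of thapsigargin (against 29.6% and 31%). Ctbp2, the partner of Klf3, rose from 76.2 to 151 CPM (0.98 ± 0.10, edgeR adjusted p = 7.25e-11), and Hdac3, a histone deacetylase, had a log2 fold change of -0.67 ± 0.06. In IFN-gamma 1 was higher and 2 lower at 8 h (against 13.1% and 12.1% of all tested genes), 2 were higher and 0 lower at 24 h (against 12.6% and 10.5%), and 1 was higher and 1 lower at 48 h (against 16.9% and 19.9%). The largest of these was Hdac1 at 8 h (0.34 ± 0.08).

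Immediate early genes gave the comparison for the early members. Of 10 such genes 8 rose at 1 h of thapsigargin (against 6.61% of all tested genes), among them Fosb (3.99 ± 0.33), Nr4a1 (2.66 ± 0.15) and Atf3 (2.23 ± 0.33). The list median was 1.70 beside -0.02 over all genes. At 8 h 3 were higher (against 29.6% of all tested genes), led by Atf3 (6.81 ± 0.37), and 4 lower (against 31%), among them Egr2 (-3.52 ± 0.36) and Egr1 (-2.84 ± 0.40). At 8 h of IFN-gamma, where Klf10 fell, Atf3 (4.31 ± 0.38), Egr2 (2.48 ± 0.25) and Jun (2.33 ± 0.17) rose (3 of 10, against 13.1% of all tested genes). Of the 10, 1 was lower (against 12.1%).

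Genes of the signals known to act on Klf9, Klf10, Klf11 and Klf15 were read in the same way. The part of these signals in the Klf changes was not tested. Of 9 tested glucocorticoid-responsive genes, a class that Klf9 and Klf15 belong to in many tissues, 7 were higher and 2 lower at 8 h of thapsigargin, led by the clock gene Per1 (2.40 ± 0.11), Tsc22d3 (2.39 ± 0.12) and the metallothionein gene Mt2 (1.56 ± 0.28). In IFN-gamma, where Klf15 also rose, 2 were higher and 4 lower at 8 h (against 13.1% and 12.1% of all tested genes). Among them Mt2 rose (2.04 ± 0.27) and the kinase gene Sgk1 fell (-1.13 ± 0.29). Of 6 tested genes listed as thyroid hormone-responsive, 0 rose and 5 fell at 8 h of thapsigargin, among them Dio2 (-1.70 ± 0.46) and Tef (-1.16 ± 0.05). From 1 to 48 h in untreated cells 3 of the 6 rose and 0 fell (against 31.9% and 30.4% of all tested genes), among them Thra (2.35 ± 0.25), the gene of a thyroid hormone receptor, and Hr (1.24 ± 0.12). At 48 h of IFN-gamma, set against the same untreated 48 h libraries, 0 were higher and 3 lower (against 16.9% and 19.9%), with Thra at -0.84 ± 0.24 and Hr at -1.05 ± 0.12. Of 9 tested TGF-beta early genes 8 rose at 8 h of thapsigargin, led by Tgif1, from 0.188 to 6.48 CPM. At 1 h Skil alone rose (0.61 ± 0.14, 1 of 9 against 6.61% of all tested genes), with Klf10 and Klf11. Of 5 tested genes of the ERK5 and MEF2 route, known to drive Klf2 and Klf4, 3 were higher and 1 lower at 8 h of thapsigargin, with Mef2c from 0.654 to 4.24 CPM and Mapk7, the ERK5 gene, at -0.93 ± 0.06.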

How the data were processed

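Whole-cell RNA of 40 libraries was sequenced, and the submitters' processing notes name STAR, featureCounts, kallisto and edgeR, with no role or version. Genome build, filters and strandedness were not given in the sources used here. The deposited gene table gives unnormalized counts of reads for each gene, and the deposited isoform table gives estimated counts per transcript, rounded to whole numbers for testing. Symbols and transcript lengths came from GENCODE M21 (38872 of 39056 gene identifiers and 112029 of 112588 transcripts matched), and promoter sequences from RefSeq (GRCm38.p6).

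The counts of all 40 libraries were fitted together in edgeR 4.0.16 (R 4.3.3, quasi-likelihood test) with a group mean for each of the 10 groups, after edgeR's filter on low counts by group and TMM scaling. This left 15135 genes and 30 residual degrees of freedom. P-values were adjusted over all tested genes by Benjamini-Hochberg, with a threshold of 0.05. Errors are SEs, and intervals cover 95%. The SE is the log2 fold change divided by the root of F. On data simulated from the thapsigargin comparison at 8 h, 74.6% of genes changed 1.5-fold, 95.5% of those changed 2-fold and 100% of those changed 4-fold were recovered among 14795 tested genes, with 6.25% false calls. The simulation took mean levels over all libraries and planted 66 or 67 changes per fold, only in genes above a floor of mean reads. Recovery for genes with few reads, or with as many changed genes as in the real comparison, was not measured. Levels per length divide the estimated counts of each transcript by its annotated length, scale to 1000000 and sum per gene.

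Library numbers fall in a lower and an upper range of 20, with 2 libraries of each group in each, which the labels do not explain. The alternatives were RLE size factors, DESeq2 1.42.0, no filter on low counts, only the groups compared, the library range as a block, each range alone, a covariate for the Y-linked level, the isoform table summed per gene, and leaving out each library in turn or (added after seeing the data) the 10 libraries of low Y-linked level. Members were named by the family list, and the 3 nearest genes by Pearson's r over group means. The members and the gene lists were chosen with earlier results of these data known.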

Additional observations from a re-analysis of the deposited data

Results flagged for a closer look

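In 12 of 100 sets of 4 libraries (10 members in 10 groups) the highest or lowest library stood apart from the other 3 by Dixon's criterion. Chance meets it in about 1 of 20 independent, normally spread sets. These sets share the same 40 libraries, and a set with reads in a single library, as for Klf2, meets it by construction. The 12 can therefore not be read against that rate. IFN-gamma 24 h replicate 1 was high for Klf3, at 55.1 CPM against 32.2 to 34.7 in the others, and for Klf6, at 75.9 against 54.2 to 56.4. Its Y-linked level was low, and its part in these values was not tested. Untreated 24 h replicate 4 was low for Klf3, at 28.5 CPM against at least 38.9 in the others. Klf4 was high in IFN-gamma 1 h replicate 2, at 16.7 CPM against 11.7 to 12.5, the library with 28.3% of reads on ribosomal-RNA-like features. Klf7 was low in untreated 1 h replicate 2 (37.9 CPM), untreated 8 h replicate 1 (32.8 CPM) and IFN-gamma 1 h replicate 3 (37.7 CPM), and high in IFN-gamma 8 h replicate 2 (38.1 CPM). Klf10 was low in IFN-gamma 24 h replicate 2 (11.1 CPM), and Klf15 was high in thapsigargin 1 h replicate 1 (3.72 CPM). Klf2 had reads in a single library of untreated 8 h (replicate 2, 0.0888 CPM) and of untreated 48 h (replicate 2, 0.0452 CPM).

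The effect of a treatment differed between times, by edgeR's test of the difference, in 10 cases. For thapsigargin the 8 h effect exceeded the 1 h effect, on the log2 scale, by 0.75 for Klf3, 0.73 for Klf9, 0.53 for Klf11 and 2.40 for Klf15. The same difference was -1.23 for Klf6 and -2.40 for Klf10. For IFN-gamma the 8 h effect exceeded the 1 h effect by 1.77 for Klf15. Between 48 and 8 h the difference was -1.39 for Klf9, -0.57 for Klf11 and -0.62 for Klf13.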

How the results depend on the processing

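Of 2483 values of single members under the alternatives, 2355 kept their state (called higher, called lower or not called). In all, 84 lost a call, 44 gained one and 0 called values changed sign. The sign of values not called in either fit was not compared. All calls against untreated cells in thapsigargin at 1 and 8 h, and those of Klf15 in IFN-gamma at 8, 24 and 48 h, held under every alternative. The count of members called moved as follows. A fit of only the groups compared gave 2 in place of 1 for IFN-gamma at 1 h (Klf9 and Klf10 in place of Klf15), 4 in place of 6 for IFN-gamma at 48 h, 6 in place of 3 for thapsigargin at 1 h, 5 in place of 3 for untreated 8 against 1 h, and 2 in place of 1 for the IFN-gamma difference between 8 and 1 h. With the library range as a block the count was 2 for IFN-gamma at 1 h. The lower 20 library numbers alone gave 0 for IFN-gamma at 1 h, 3 in place of 5 at 8 h, 1 for untreated 8 h, 3 in place of 5 for untreated 24 h and 0 in place of 3 for the IFN-gamma difference between 48 and 8 h. The upper 20 gave 3 for IFN-gamma at 8 h, 1 in place of 4 at 24 h and 1 for untreated 8 h. Without the libraries of low Y-linked level, an alternative chosen after seeing the data, the IFN-gamma difference between 48 and 8 h gave 1. The cause was not tested. All of these fits but the one with the block use fewer samples. Leaving out each library in turn gave 1 to 2 members for IFN-gamma at 1 h, 3 to 5 at 8 h, 3 to 4 at 24 h, 5 to 7 at 48 h, 3 to 4 for thapsigargin at 1 h, 6 at 8 h, 1 to 3 for untreated 8 h, 4 to 5 for 24 h and 8 to 9 for 48 h. For the direct comparison of the treatments it gave 3 to 4 at 1 h and 6 to 8 at 8 h, and for the differences 5 to 7 (thapsigargin), 1 (IFN-gamma, 8 and 1 h) and 2 to 5 (IFN-gamma, 48 and 8 h, the highest without untreated 48 h replicate 2). The counts of all genes called went from 195 to between 80 and 250 for IFN-gamma at 1 h, from 3811 to between 2456 and 4299 at 8 h, from 3493 to between 1526 and 3775 at 24 h and from 5570 to between 2041 and 6441 at 48 h. For thapsigargin at 1 h they went from 1331 to between 179 and 1918, for untreated 8 h from 1049 to between 125 and 1913, for untreated 24 h from 4282 to between 430 and 4688, and for the treatments at 1 h from 921 to between 193 and 1022. For the IFN-gamma differences they went from 1874 to between 839 and 2717 and from 2577 to between 86 and 4297. Depth limits Klf2 in all groups and Klf4 at 48 h, where a library held 1 to 19 reads. No paired analysis was possible because the labels number libraries across the whole series and give no replicate number shared between groups.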

Other observations

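Under IFN-gamma called genes of the TGF-beta and ERK5 lists went in both directions at 8 h, and those of the thyroid hormone list fell. At 8 h 13.1% of all tested genes were higher and 12.1% lower, and the counts of these lists at 8 h are to be read against these shares. Of 9 tested TGF-beta early genes 2 rose at 8 h, among them Ccn2 (log2 fold change ± SE 3.18 ± 0.83, edgeR adjusted p = 0.00342). Tgfb2 (-0.94 ± 0.32) and Smad3 (-0.42 ± 0.10) fell, while Klf10 fell and Klf11 was at -0.07 and not called. At 48 h 0 of 9 rose and 3 fell (against 16.9% and 19.9% of all tested genes), among them Tgfb2 (-2.58 ± 0.30). Of 5 tested genes of the ERK5 and MEF2 route, Mef2c rose from 0.654 to 5.72 CPM at 8 h while Mapk7 (-0.51 ± 0.06) and Map2k5 (-0.43 ± 0.07) fell, and Klf4 fell. Of 6 tested genes listed as thyroid hormone-responsive 0 rose and 4 fell at 8 h (against 13.1% and 12.1%), among them Thrb (-0.99 ± 0.33). The part of the signals behind these lists in the Klf changes was not tested.

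Klf9 and Klf15 both rose at 8 h of thapsigargin and of IFN-gamma, yet at 48 h of IFN-gamma Klf9 was lower and Klf15 higher than in untreated cells. The call of Klf9 at 8 h of IFN-gamma depended on single libraries and ended without those of low Y-linked level (adjusted p = 0.195), while that of Klf15 held under every alternative. Under IFN-gamma the mean level of Klf15 was 9.14 CPM at 8 h and 11.6 at 48 h, and that of Klf9 40.4 and 39.8.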
